A study of Mus musculus with 18 samples.

Results

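Matrix metalloproteinases (MMPs) were followed across 18 bulk RNA libraries of mouse hepatic stellate cells (HSCs) and intrahepatic cholangiocyte organoids (ICOs). The 10 genes described are Mmp2, Mmp3, Mmp7, Mmp9, Mmp10, Mmp11, Mmp13, Mmp14, Mmp15 and Mmp19. They were chosen by gene name, and all 10 were found among the 35667 genes of the count table. HSCs are the retinoid-storing mesenchymal cells of the liver sinusoid and came from healthy wild-type mice. ICOs are bile duct epithelial cells grown as organoids, here carrying a dTomato tag and used as the progenitor cells of the study. The 6 groups held 3 libraries each. HSCs were taken directly after isolation (day 0), after 7 days alone on plastic, after 7 days alone in Matrigel, or after 7 days in Matrigel together with ICOs. ICOs were taken after 7 days alone in Matrigel or from the same kind of co-culture. Sorting on day 7 separated the cells of the Matrigel cultures. The growth medium given for every group, the day 0 cells included, mixed serum-containing DMEM with AdvDMEM/F12 and also held B27, N2, growth factors (EGF, FGF10, HGF, RSPO3), gastrin, nicotinamide and N-acetylcysteine. The sources used here give neither strain nor age of the mice, nor the origin of the organoid line, nor how many animals stand behind a library. The p-values therefore measure the spread between these libraries, which may be technical.

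MMPs are zinc-dependent endopeptidases that cut extracellular matrix and cell surface proteins. Most are secreted as inactive zymogens and are switched on by plasmin, by other MMPs or by furin-like convertases, and tissue inhibitors of metalloproteinases (TIMPs) block them. In the liver, stellate cells are a main source of the gelatinase Mmp2, its membrane-bound activator Mmp14 and TIMPs, while the matrilysin Mmp7 is known from injured biliary epithelium. Matrigel is a gel of basement membrane proteins rich in laminin and collagen IV.

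Mmp13, Mmp3, Mmp10 and Mmp7 share a stretch of chromosome 9, and their proximal promoters are shown because the first 3 were high together on plastic while Mmp7 was high in the organoids. The 120 bases before the annotated start are given 5′ to 3′ on the coding strand (RefSeq, GRCm38.p6). They lie at chr9:7272394-7272513 for Mmp13, chr9:7445702-7445821 for Mmp3, chr9:7502222-7502341 for Mmp10 and chr9:7691970-7692089 for Mmp7, all on the plus strand and all upstream of the first exon. Capitals mark the AP-1 motif TGANTCA in these 4 genes. Mmp14, at chr14:54431478-54431597 on the plus strand, is shown for contrast, and there capitals mark the GC box GGGCGG.
Mmp13: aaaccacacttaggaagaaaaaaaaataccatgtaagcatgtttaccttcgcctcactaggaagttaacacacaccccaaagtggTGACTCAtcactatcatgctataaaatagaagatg
Mmp3: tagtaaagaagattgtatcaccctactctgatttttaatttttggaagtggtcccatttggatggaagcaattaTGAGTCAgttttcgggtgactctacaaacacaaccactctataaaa
Mmp10: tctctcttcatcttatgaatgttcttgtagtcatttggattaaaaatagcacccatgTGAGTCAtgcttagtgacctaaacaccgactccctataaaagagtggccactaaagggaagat
Mmp7: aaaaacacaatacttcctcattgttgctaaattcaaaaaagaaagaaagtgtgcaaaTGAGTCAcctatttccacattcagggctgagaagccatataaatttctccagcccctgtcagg
Mmp14: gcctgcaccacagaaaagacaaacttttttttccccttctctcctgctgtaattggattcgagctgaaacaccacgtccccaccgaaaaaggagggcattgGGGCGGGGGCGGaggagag

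A promoter entry was found for 7 of the 10 members, leaving Mmp2, Mmp9 and Mmp19 without. Motifs were searched on both strands in the 250 bases before the start. TGANTCA was present in Mmp3, Mmp7, Mmp10 and Mmp13, with its first base at -46, -63, -63 and -35, and in 6.75% of 32817 promoters. TATAAA was present in the same 4 members and in 12.4% of promoters. The GC box GGGCGG was present in the other 3, Mmp11, Mmp14 and Mmp15, and in 32.7% of promoters. The ETS motif AGGAAG was present in 4 members, Mmp3, Mmp7, Mmp13 and Mmp14, and in 29.5% of promoters. Mmp7 has a second annotated start, whose window held neither TGANTCA nor TATAAA. These matches describe letters in the sequence and show no binding.

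Total estimated counts ran from 6907479 to 22158674 per library. The summed level of 10 stellate markers, in counts scaled to library size (CPM, comparable between libraries but not between genes of different length), was 60885 to 70125 CPM at day 0, 5912 to 11923 CPM on plastic, 24154 to 43290 CPM in Matrigel alone, 5886 to 9682 CPM in co-cultured HSCs and 1.68 to 56.9 CPM in ICOs, where Hand2 was at 0 counts. The summed level of 18 cholangiocyte markers was 16216 to 19548 CPM in ICOs and 9.92 to 170 CPM in day 0 and plastic HSCs. HSC libraries of the Matrigel cultures also carried organoid transcripts. From 10 cholangiocyte genes, the organoid share was 30.2%, 13.0% and 2.90% in HSCs alone in Matrigel (replicates 1 to 3) and 27.9%, 14.9% and 42.0% in co-cultured HSCs, against at most 0.281% in day 0 and plastic HSCs. Day 0 libraries carried 15607 to 16496 CPM of 10 hepatocyte markers and 1436 to 1488 CPM of 10 endothelial markers, against at most 576 and 52.6 CPM in all other groups. In bulk libraries, fewer cells of a type and less RNA per cell cannot be told apart.

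**Figure D1:**
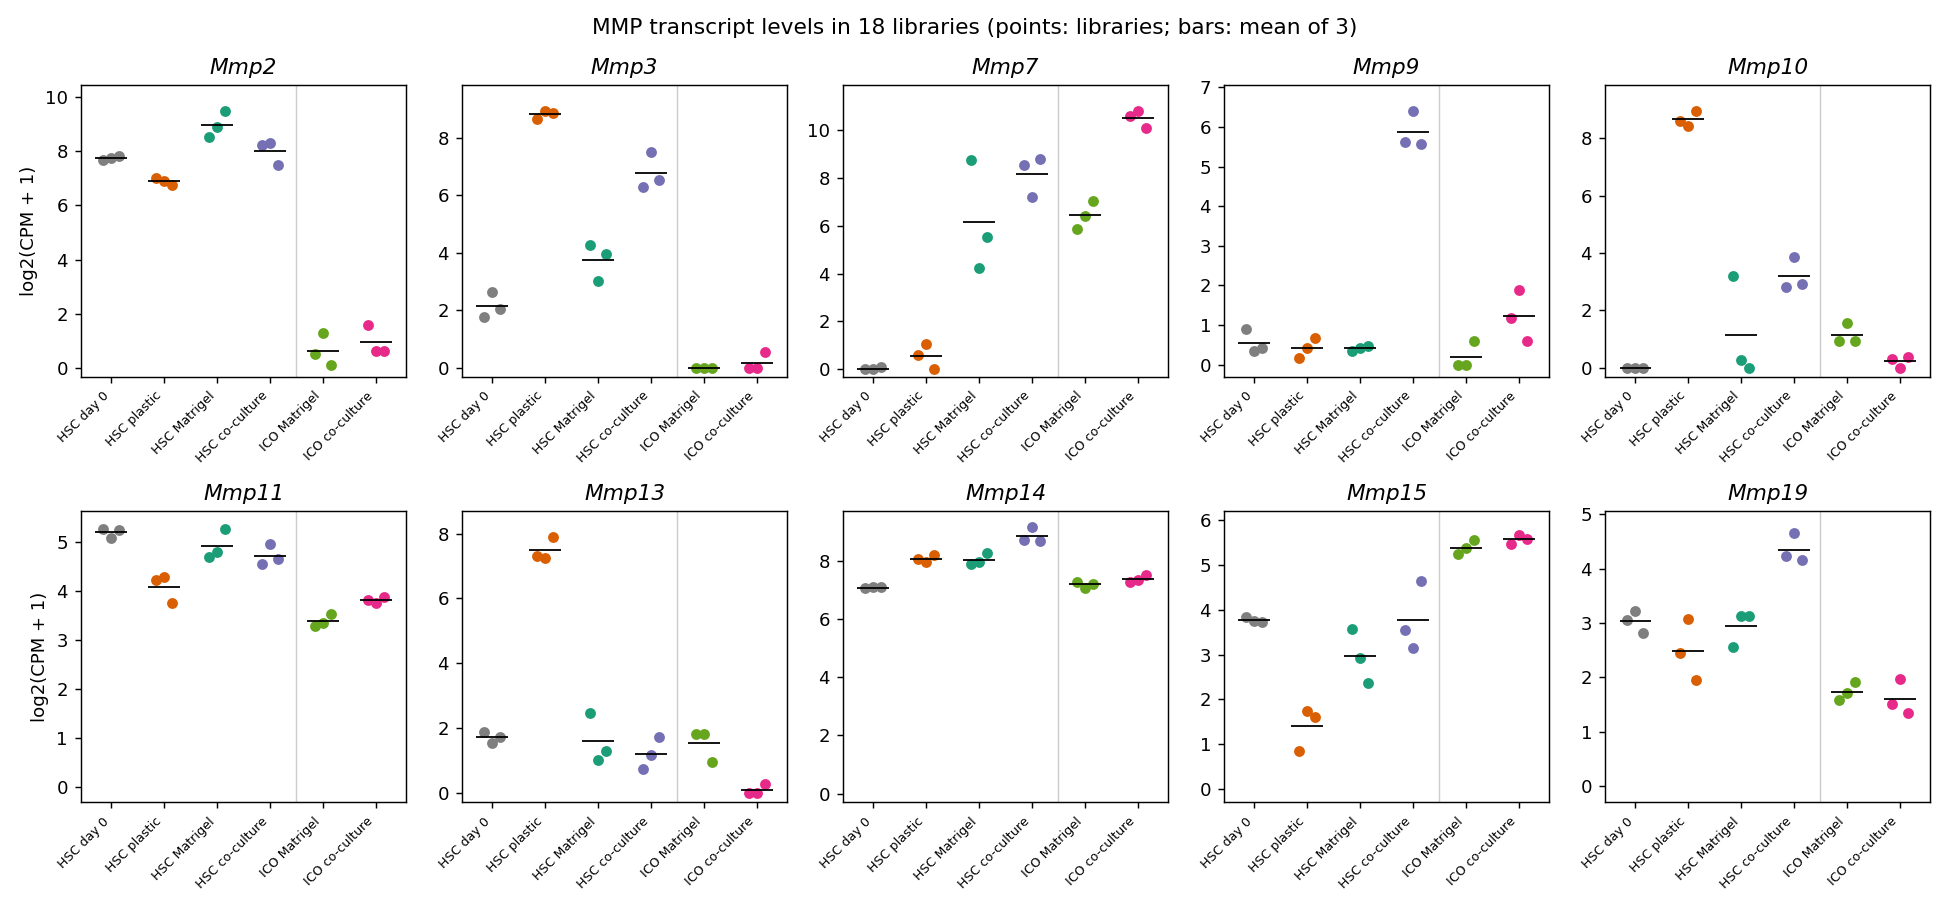
Transcript levels of the 10 MMP genes as log2(CPM + 1) in the 18 libraries, with HSC groups left and ICO groups right of the grey line; points are libraries and bars the mean of 3. Mmp3, Mmp10 and Mmp13 were highest in plastic HSCs, Mmp9 and Mmp19 in co-cultured HSCs, Mmp2 in HSCs alone in Matrigel, and Mmp7 in co-cultured ICOs.

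Stromelysins and collagenase. Stromelysin-1 (Mmp3) and stromelysin-2 (Mmp10) degrade proteoglycans, laminin and fibronectin and activate other MMPs, and Mmp13 is the main interstitial collagenase of rodents. These 3 genes were at or near the bottom of the range at day 0 and were high on plastic. Mmp3 stood at 2.43, 5.17 and 3.16 CPM at day 0 and at 404, 481 and 456 CPM on plastic, with no overlap between the groups. The fitted log2 fold change was 7.01 ± 0.48 (SE, adjusted p = 4.12e-07 by edgeR's quasi-likelihood test with Benjamini-Hochberg adjustment over all genes, which is the test behind every adjusted p in the text). Mmp10 had no count in any day 0 library and 391, 347 and 491 CPM on plastic, at least 5736-fold higher than the floor of 3 counts over the day 0 group (adjusted p = 0.000515). Mmp13 stood at 2.67, 1.91 and 2.26 CPM at day 0 and at 156, 151 and 238 CPM on plastic (log2 fold change 6.38 ± 0.51, adjusted p = 1.28e-06).

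In Matrigel alone none of these genes came near its level on plastic. Mmp3 was at 18.1, 7.19 and 14.6 CPM, above day 0 in all 3 libraries (log2 fold change 1.88 ± 0.42, adjusted p = 0.00474) and below plastic by a log2 fold change of -5.13 ± 0.43 (adjusted p = 3.79e-06). Mmp13 was at 4.55, 0.989 and 1.46 CPM, a range that takes in all 3 day 0 libraries (0.02 ± 0.52 against day 0, adjusted p = 0.979). Mmp10 was at 8.09 CPM in replicate 1, at 0.198 CPM in replicate 2 and at 0 counts in replicate 3, so its level rested on the library with 30.2% organoid share. Lone ICOs held Mmp10 at 0.926, 1.95 and 0.923 CPM, and the organoid share accounted for 4.72% of the level in replicate 1. Against plastic, the log2 fold change was -7.32 ± 1.23 for Mmp10 (adjusted p = 0.00172) and -6.36 ± 0.50 for Mmp13 (adjusted p = 2.56e-06).

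With organoids in the gel, Mmp3 rose and Mmp13 did not. Mmp3 stood at 77.6, 181 and 90.8 CPM in co-cultured HSCs, above every HSC library of Matrigel alone (log2 fold change 3.18 ± 0.39, adjusted p = 0.000146) and below every plastic library (-1.95 ± 0.37, adjusted p = 0.00157). ICOs had no Mmp3 count alone and 0, 0 and 0.449 CPM in co-culture, and organoid share times organoid level came to at most 0.0693% of Mmp3 in co-cultured HSCs. Mmp13 stood at 0.640, 1.24 and 2.30 CPM, overlapping Matrigel alone (-0.58 ± 0.55, adjusted p = 0.452) and far below plastic (-6.94 ± 0.53, adjusted p = 4.45e-06). Mmp10 stood at 6.02, 13.5 and 6.53 CPM in co-cultured HSCs, at least 122-fold above the day 0 floor (adjusted p = 0.0169, but 0.0552 without co-culture replicate 2 and 0.150 with the organoid share as a covariate). Against Matrigel alone its change was 1.78 ± 1.11 (adjusted p = 0.266), and without Matrigel replicate 1 it was 6.53 (adjusted p = 0.000318).

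In ICOs the collagenase and stromelysin-2 were low and lower still in co-culture. Mmp13 was at 2.49, 2.49 and 0.923 CPM in lone ICOs and at 0, 0 and 0.200 CPM in co-cultured ICOs, with no overlap (log2 fold change -4.59 ± 0.83, adjusted p = 0.000884). These values rest on 78 and 4 counts over the groups. Mmp10 in co-cultured ICOs was at 0.229, 0 and 0.300 CPM (-2.72 ± 0.74, adjusted p = 0.0158), and this call was lost without co-culture replicate 1 or 2 or lone replicate 2 (adjusted p = 0.0605, 0.0681 and 0.119) and with all 18 libraries in 1 fit (adjusted p = 0.520).

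Gelatinases. Mmp2 and Mmp9 cleave denatured collagen and collagen IV, a chief component of Matrigel. Across the HSC groups, Mmp2 was abundant throughout and Mmp9 was nearly absent outside co-culture. Mmp2 stood at 201, 214 and 221 CPM at day 0, at 128, 118 and 105 CPM on plastic, at 368, 472 and 704 CPM in Matrigel alone and at 296, 313 and 179 CPM in co-culture. Plastic lay below and Matrigel above every day 0 library, while co-culture spanned day 0. Mmp2 was lower on plastic (log2 fold change -0.79 ± 0.24, adjusted p = 0.0125, and 0.05003 without plastic replicate 3) and rose in Matrigel alone by 1.29 ± 0.24 (adjusted p = 0.00102). It was higher in Matrigel alone than on plastic by 2.08 ± 0.25 (adjusted p = 2.01e-05) and fell from Matrigel alone to co-culture by 0.93 ± 0.24 (adjusted p = 0.0109). With all 18 libraries in 1 fit, the fall on plastic and the fall in co-culture missed the threshold at nearly the same size (adjusted p = 0.0897 and 0.0656).

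Mmp2 in ICOs did not exceed 1.48 CPM alone or 2.00 CPM in co-culture. Within both HSC groups of the Matrigel cultures, the library with the largest organoid share had the lowest Mmp2 level, 368 CPM at 30.2% and 179 CPM at 42.0%. With the organoid part subtracted, the fall of Mmp2 from Matrigel alone to co-culture was -0.68 (adjusted p = 0.00418), and with the share as a covariate -0.49 (adjusted p = 0.0320). Co-cultured HSCs against day 0 gave 0.36 ± 0.24 for Mmp2 (adjusted p = 0.223), and 0.85 with the organoid part subtracted (adjusted p = 0.000528).

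Mmp9 did not exceed 0.863 CPM in any HSC library of day 0, plastic or Matrigel alone. In co-cultured HSCs it stood at 48.4, 83.8 and 46.6 CPM, clear of all other libraries. The log2 fold change against Matrigel alone was 7.49 ± 0.45 (adjusted p = 1.04e-07), against plastic 7.33 ± 0.44 (adjusted p = 1.10e-07) and against day 0 6.98 ± 0.44 (adjusted p = 2.58e-08), and the 3 comparisons share the co-cultured libraries. Co-cultured ICOs held Mmp9 at 1.26, 2.70 and 0.499 CPM, so the organoid share times that level came to at most 1.34% of Mmp9 in co-cultured HSCs. Neutrophils and macrophages are known producers of Mmp9. Among 10 neutrophil markers, Ly6g, Retnlg and Elane had no count in co-cultured HSCs, and none on plastic either. Cxcr2 was at 0, 4.14 and 2.43 CPM in co-cultured HSCs and at 5.61, 9.99 and 8.84 CPM on plastic. The summed level of 113 to 302 CPM there was mostly Ltf, at 269, 90.2 and 286 CPM, which stood at 324 to 752 CPM in ICOs. S100a8 was at 6.53, 18.3 and 13.4 CPM in co-cultured HSCs and at most 0.545 CPM in the other HSC libraries, and its part in the Mmp9 result was not tested. The summed level of 16 macrophage markers was 128 to 206 CPM in co-cultured HSCs, of which Lyz2 made 97.5 to 153 CPM. In HSCs alone in Matrigel it was 2535 to 3478 CPM, with Lyz2 at 1978 to 2770 CPM and Mmp9 at 0.267 to 0.392 CPM. The part of either cell type in the Mmp9 levels was not tested.

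Matrilysin. Mmp7 is a small secreted MMP without a hemopexin domain that epithelia make, and it sheds surface proteins. It was the most abundant MMP transcript of the organoids and rose when stellate cells shared the gel. Lone ICOs held 57.3, 83.5 and 129 CPM and co-cultured ICOs 1522, 1746 and 1083 CPM, with no overlap (log2 fold change 4.0 ± 0.39, adjusted p = 0.00246). Mmp7 was at 0, 0 and 0.0686 CPM in day 0 HSCs, a single count, and at 0.528, 1.06 and 0 CPM in plastic HSCs.

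HSC libraries of the Matrigel cultures held Mmp7 at 425, 17.8 and 45.4 CPM alone and at 366, 144 and 445 CPM from co-culture. The group means were 6842 and 13384 times the day 0 level, with counting intervals of 1228 to 270227 and 2402 to 528621 (95%, counting error only). Both calls against day 0 passed the test (adjusted p = 0.00133 and 0.000465). Organoid share times the co-cultured ICO level came to 405, 216 and 609.5 CPM in the co-cultured HSC libraries, above the measured level in each. Subtraction set negative remainders to 0, which left no Mmp7 count in co-cultured HSCs. The subtracted fit therefore could not call Mmp7 higher than at day 0, and nothing is concluded from it (log2 fold change -1.84 ± 10.50, adjusted p = 0.907). With the share as a covariate Mmp7 in co-cultured HSCs was called against day 0, at 10.45 (adjusted p = 0.00399), and against plastic at 6.22 (adjusted p = 0.0107). The covariate acts on the log scale, while organoid transcripts add to the counts. That fit therefore cannot take off the organoid part, and nothing is concluded from it either. In HSCs alone in Matrigel, replicate 1 held most of the group's Mmp7. Its organoid share times the lone ICO level came to 27.2 CPM, against 425 CPM measured, and times the co-cultured ICO level to 438 CPM. For replicates 2 and 3 the products with the lone ICO level were 11.7 and 2.61 CPM, and with the co-cultured level 189 and 42.0 CPM. Co-culture against Matrigel alone gave 1.04 ± 0.97 for Mmp7 in HSCs (adjusted p = 0.451), and 3.37 without Matrigel replicate 1 (adjusted p = 0.00596).

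**Figure D2:**
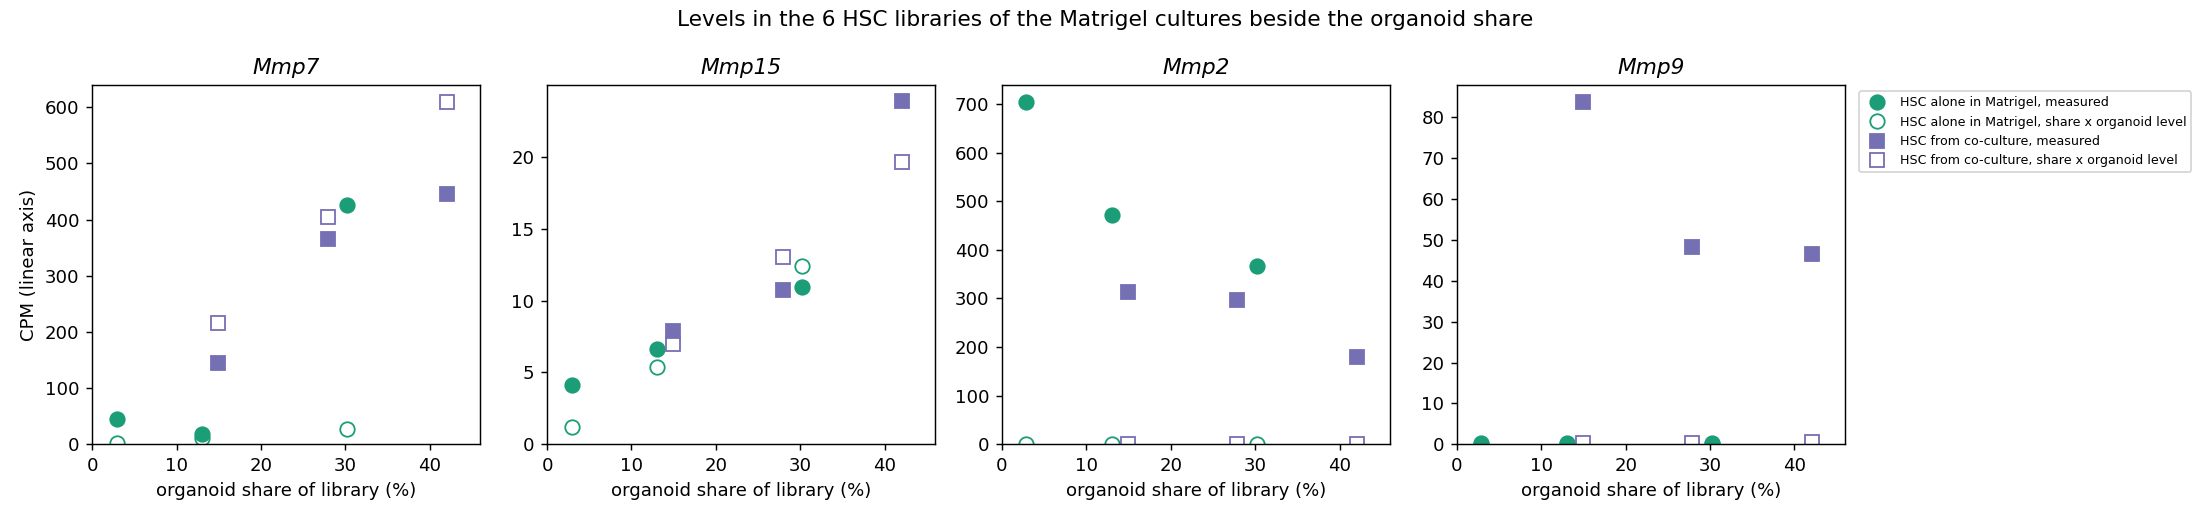
Levels of Mmp7, Mmp15, Mmp2 and Mmp9 in CPM (linear axis) against the organoid share in percent, in the 3 HSC libraries of Matrigel alone (circles) and the 3 of co-culture (squares); filled symbols are measured levels and open symbols the share times the mean level of the ICO group of the same culture. The open squares for Mmp7 lie above the filled ones in all 3 co-culture libraries, those for Mmp15 lie near them, and those for Mmp2 and Mmp9 lie near 0.

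Membrane-type MMPs. Mmp14 (MT1-MMP) is a transmembrane collagenase that activates Mmp2 at the cell surface, and Mmp15 (MT2-MMP) is its close relative. Mmp14 was high in every library of both cell sources, whereas Mmp15 was higher in organoids. Mmp14 stood at 134, 136 and 136 CPM at day 0, at 266, 248 and 297 CPM on plastic, at 239, 252 and 308 CPM in Matrigel alone and at 422, 575 and 415 CPM in co-culture. All cultured libraries lay above day 0, plastic and Matrigel alone overlapped, and co-culture lay above both. The log2 fold changes were 1.06 ± 0.15 for plastic against day 0 (adjusted p = 3.43e-05), 0.99 ± 0.15 for Matrigel against day 0 (adjusted p = 0.000152) and 0.86 ± 0.15 for co-culture against Matrigel alone (adjusted p = 0.000599). Plastic and Matrigel alone did not differ beyond their spread (-0.08 ± 0.15, adjusted p = 0.681). ICOs held Mmp14 at 156, 134 and 148 CPM alone and at 155, 161 and 183 CPM in co-culture, and the groups overlapped (0.17 ± 0.09, adjusted p = 0.238).

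Mmp15 stood at 37.1, 40.3 and 45.8 CPM in lone ICOs and at 43.5, 50.1 and 46.7 CPM in co-cultured ICOs, which overlapped (0.17 ± 0.12, adjusted p = 0.365). In HSCs it was at 13.3, 12.5 and 12.1 CPM at day 0 and at 0.792, 2.35 and 2.04 CPM on plastic, a fall of 2.79 ± 0.49 on the log2 scale (adjusted p = 0.000292). It was at 10.97, 6.60 and 4.14 CPM in Matrigel alone and at 10.8, 7.91 and 23.9 CPM in co-culture, and within each group it followed the order of the organoid share. Share times ICO level came to 12.4, 5.35 and 1.19 CPM alone and to 13.1, 6.96 and 19.7 CPM in co-culture. Both Matrigel groups were higher than plastic for Mmp15 (1.98 ± 0.49 alone, adjusted p = 0.00408, and 3.01 ± 0.49 in co-culture, adjusted p = 0.000385). With the organoid part subtracted these values were -0.19 and 0.71 (adjusted p = 0.910 and 0.668). With the share as a covariate they were 1.04 and 1.31 (adjusted p = 0.0323 and 0.0644).

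Mmp11 and Mmp19. Stromelysin-3 (Mmp11) is activated inside the cell by furin and is known from stromal cells, and Mmp19 is a secreted MMP that cuts basement membrane proteins. Mmp11 moved little and was lowest among HSCs on plastic. It stood at 37.3, 32.6 and 36.6 CPM at day 0, at 17.6, 18.3 and 12.4 CPM on plastic, at 24.9, 26.6 and 37.0 CPM in Matrigel alone and at 22.4, 30.0 and 23.9 CPM in co-culture. Mmp11 fell on plastic by 1.07 ± 0.20 on the log2 scale (adjusted p = 0.000391), with no overlap. Co-culture gave -0.17 ± 0.20 against Matrigel alone (adjusted p = 0.548). In ICOs Mmp11 was at 8.77, 9.19 and 10.5 CPM alone and at 13.0, 12.5 and 13.6 CPM in co-culture, which did not overlap but missed the threshold (0.45 ± 0.19, adjusted p = 0.113).

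Mmp19 was higher in co-cultured HSCs than in any other library. It stood at 7.30, 8.30 and 6.04 CPM at day 0, at 4.42, 7.40 and 2.89 CPM on plastic, at 4.88, 7.78 and 7.79 CPM in Matrigel alone and at 17.9, 24.3 and 16.8 CPM in co-culture. The first 3 groups overlapped and co-culture stood clear of them. Mmp19 rose in co-culture by a log2 fold change of 1.57 ± 0.33 against Matrigel alone (adjusted p = 0.00262), 1.99 ± 0.33 against plastic (adjusted p = 0.000405) and 1.5 ± 0.33 against day 0 (adjusted p = 0.00164), comparisons that share the co-cultured libraries. Share times ICO level came to at most 5.23% of Mmp19 in co-cultured HSCs. ICOs held Mmp19 at 2.00, 2.26 and 2.77 CPM alone and at 1.83, 2.90 and 1.55 CPM in co-culture.

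Counted by comparison, on plastic against day 0 the test called 4 members higher and 3 lower, beside 27.5% and 30.5% of 17020 genes tested (58% either way). The members higher were Mmp3, Mmp10, Mmp13 and Mmp14, and those lower were Mmp2, Mmp11 and Mmp15. In Matrigel alone against day 0, 4 members were higher (Mmp2, Mmp3, Mmp7, Mmp14) and 0 lower, beside 19.3% and 21.5% of genes (40.8% either way). The count of 0 lower also held at an unadjusted p under 0.05 and with DESeq2, while with the organoid share as a covariate Mmp15 was lower (-1.74, adjusted p = 0.00222). DESeq2 also called Mmp10 higher (adjusted p = 0.000909). In Matrigel alone against plastic, 4 were higher (Mmp2, Mmp7, Mmp11, Mmp15) and 3 lower (Mmp3, Mmp10, Mmp13), beside 29.9% and 25.2% (55% either way). Between plastic and day 0, and between plastic and Matrigel alone, 7 of 10 members changed, beside 58% and 55% of all genes. These counts are not read as a result about the family. Between plastic and co-culture all 10 were called, as given below.

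In co-cultured HSCs against Matrigel alone, 4 members were higher (Mmp3, Mmp9, Mmp14, Mmp19) and Mmp2 alone was lower, beside 17.3% and 13.8% of genes (31.1% either way). In the same comparison 7 of 10 stellate markers and 13 of 16 macrophage markers were lower and 0 of either list were higher, and their part in the members' changes was not tested. Without Matrigel replicate 1, 7 were higher, with Mmp7, Mmp10 and Mmp15 added. Against plastic, co-cultured HSCs had 7 members higher and 3 lower (Mmp3, Mmp10, Mmp13), beside 22.9% and 19.6% (42.5% either way). Of these calls, Mmp11 was lost without co-culture replicate 2 or plastic replicate 3 (adjusted p = 0.0921 and 0.0846). Mmp3 and Mmp15 were lost with the organoid share as a covariate (adjusted p = 0.0676 and 0.0644). Mmp7 and Mmp15 were lost with the organoid part subtracted, which set every Mmp7 count of co-cultured HSCs to 0. Against day 0, 6 were higher (Mmp3, Mmp7, Mmp9, Mmp10, Mmp14, Mmp19) and 0 lower, beside 28.9% and 24.8% (53.7% either way). Mmp11 was lower at an unadjusted p under 0.05, and DESeq2 called it lower (adjusted p = 0.0418). In ICOs, Mmp2, Mmp3 and Mmp9 fell below the filter on low counts. Of the 7 tested, Mmp7 was higher in co-culture and Mmp10 and Mmp13 were lower, beside 8.59% and 7.96% of 13726 genes (16.6% either way). The median log2 change of the tested members was 1.03 in co-cultured HSCs against Matrigel alone, where that of all genes was 0.03. It was 0.17 in ICOs, where that of all genes was 0.00139. The median in HSCs lay between Mmp15 (1.03) and Mmp7 (1.04), neither of them called. Organoid share times ICO level came to 82.4% to 149% of their levels in co-cultured HSCs. The organoid part of this median was not tested.

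**Figure D3:**
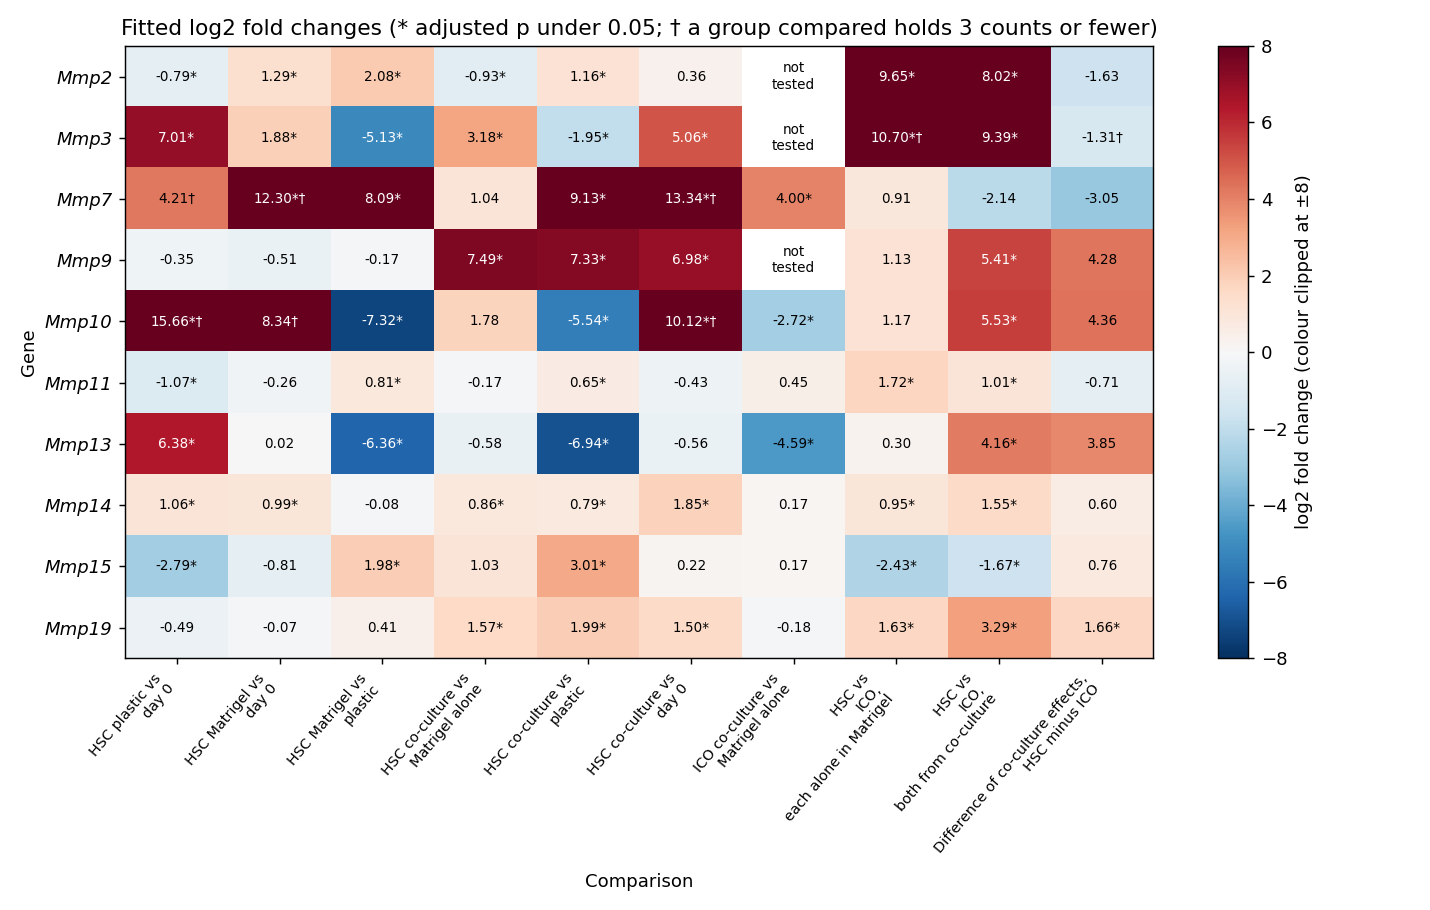
Fitted log2 fold changes of the 10 members (vertical axis) in the 10 comparisons (horizontal axis), with colour clipped at 8 either way; an asterisk marks an adjusted p under 0.05, and a dagger a comparison in which a group holds 3 counts or fewer, where the fitted size depends on the prior count. Mmp9 stands at 7.49, 7.33 and 6.98 in the 3 co-culture comparisons of HSCs, and Mmp13 at 6.38 on plastic against day 0.

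Stellate cells were then set against organoids. Each alone in Matrigel, HSCs were higher for Mmp2, Mmp3, Mmp11, Mmp14 and Mmp19 and lower for Mmp15, that is 5 and 1 of 10 members beside 30.9% and 25.8% of 16233 genes (56.7% either way). Mmp2 gave the best measured of the large differences, 9.65 ± 0.75 on the log2 scale (adjusted p = 5.63e-06), and Mmp3 was at least 172-fold higher than the floor over the lone ICOs. Mmp7 did not differ beyond its spread (0.91 ± 0.96, adjusted p = 0.441), and without Matrigel HSC replicate 1 the difference was -1.47 (adjusted p = 0.0664). Both taken from co-culture, HSCs were higher for 8 members and lower for Mmp15 alone, beside 24% and 15.6% of genes (39.6% either way). The differences were 5.41 ± 0.61 for Mmp9 (adjusted p = 4.29e-05), 3.29 ± 0.33 for Mmp19 (adjusted p = 5.68e-06) and 1.55 ± 0.15 for Mmp14 (adjusted p = 4.28e-06). Of the 8, the Mmp10 call was lost without co-cultured HSC replicate 2, without any of the 3 co-cultured ICO replicates and without the low-count filter (adjusted p from 0.0550 to 0.0658). The co-cultured HSC and ICO libraries carry the same letter and numbers in their titles and may come from the same cultures, which the labels do not state. With the replicate number as a block, the counts stayed at 8 and 1. Mmp7 was -2.14 ± 0.99 there (adjusted p = 0.115), and with a fit to the 6 libraries compared it passed at the same size (adjusted p = 0.00207).

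Whether co-culture changed a member differently in HSCs and ICOs was tested by the difference of the effects, which called 1 member higher in HSCs and 0 lower, beside 9.08% and 8.06% of genes (17.1% either way). That member was Mmp19, with 1.57 in HSCs and -0.18 in ICOs and a difference of 1.66 ± 0.45 (adjusted p = 0.0221). The call was lost without co-cultured HSC replicate 2, co-cultured ICO replicate 1 or 3 or lone ICO replicate 3 (adjusted p from 0.0567 to 0.0605). For Mmp7 the difference was -3.05 ± 1.38 (adjusted p = 0.169), for Mmp9 4.28 ± 1.66 (adjusted p = 0.104) and for Mmp13 3.85 ± 1.26 (adjusted p = 0.0515). For the count of 0 lower, Mmp11 alone was lower in HSCs at an unadjusted p under 0.05, and DESeq2 called 0. DESeq2 called 3 members higher, Mmp9, Mmp13 and Mmp19.

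Which MMP dominated a group was read per length, as CPM per kb of transcript, over all 23 MMP genes. The summed level was 158 ± 2.52 CPM per kb at day 0, 703 ± 69.5 on plastic, 468 ± 177 in Matrigel alone and 673 ± 56.9 in co-cultured HSCs (SD, n = 3). It was 146 ± 33.1 in lone and 1428 ± 312 in co-cultured ICOs. The HSC sums in Matrigel alone and in co-culture include Mmp7, at 152 ± 213 and 298 ± 146 CPM per kb. In co-cultured HSCs Mmp7 made 43.3% of the sum. The organoid part of Mmp7 given above was not taken off, so these sums are not levels of stellate cells alone. Among the members, Mmp2 led at day 0 with 68.9 ± 3.29 CPM per kb, ahead of Mmp14 with 41.8 ± 0.38 and Mmp11 with 15.5 ± 1.11, and Mmp15, Mmp19 and Mmp3 (2.46, 2.12 and 1.99) did not differ beyond their spread. On plastic Mmp3 and Mmp10 led with 248 ± 21.9 and 238 ± 42.7, within each other's spread, followed by Mmp14 with 83.5 ± 7.69 and Mmp13 with 68.0 ± 18.1, again within their spread. Mmp3 made 35.5% of the MMP sum on plastic, Mmp10 33.7% and Mmp2 5.47%, against 43.7% for Mmp2 at day 0.

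In Matrigel alone Mmp2 led with 167 ± 56.0 CPM per kb, Mmp7 varied too widely to be placed (152 ± 213), and Mmp14 stood at 82.3 ± 11.2. Among the members in co-cultured HSCs the order was Mmp7 (298 ± 146, beside the organoid part given above), Mmp14 (145 ± 27.9), Mmp2 (85.3 ± 23.8), Mmp3 (64.6 ± 31.2) and Mmp9 (18.8 ± 6.61). Mmp7 and Mmp14 overlapped within their SDs, as did Mmp2 and Mmp3, so neither pair is ordered. Mmp23, another MMP gene, stood at 27.6 ± 6.75 between Mmp3 and Mmp9. In lone ICOs Mmp7 (84.2 ± 34.0) led Mmp14 (45.2 ± 3.42) and Mmp15 (8.0 ± 0.85). In co-cultured ICOs Mmp7 reached 1358 ± 316 CPM per kb and made 94.9% ± 1.54 of the MMP sum, while Mmp14 (51.3 ± 4.49) and Mmp15 (9.11 ± 0.65) kept the same order.

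**Figure D4:**
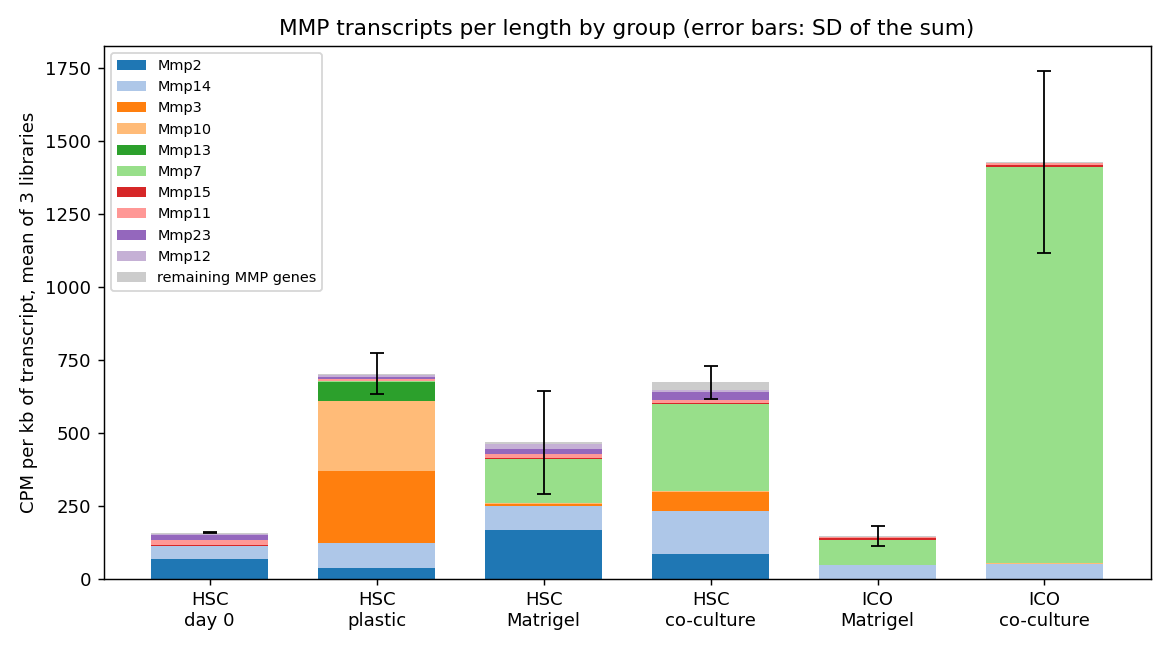
Stacked mean levels of MMP transcripts in CPM per kb for the 6 groups, with the genes in colour and the remaining MMP genes in grey; error bars are the SD of the summed level over 3 libraries. Mmp3 and Mmp10 fill most of the plastic bar (summed level 703), Mmp2 and Mmp14 most of the day 0 bar (158), and Mmp7 most of the co-cultured ICO bar (1428).

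Of the 13 other MMP genes, 7 passed the filter in the HSC comparisons. The collagenase Mmp1b was at 2.05, 1.83 and 1.68 CPM on plastic and at most 0.128 CPM elsewhere. Neutrophil collagenase Mmp8 was at 0.256, 2.12 and 4.41 CPM in co-cultured HSCs and at most 0.594 CPM elsewhere (2.97 ± 1.03 against Matrigel alone, adjusted p = 0.0475), and its lowest co-culture library lay within the range of Matrigel alone. Mmp23 was at 5.77 to 47.7 CPM in all HSC libraries and at most 0.156 CPM in ICOs. Against Matrigel alone, Mmp8 and Mmp17 were higher and Mmp27 was lower in co-culture, with 4 not called, beside 17.3% and 13.8% of all genes. On plastic against day 0, Mmp1b was higher, Mmp23 was lower and 5 were not called, beside 27.5% and 30.5%. In ICOs 4 were tested and 0 were called, at an adjusted or an unadjusted p under 0.05 alike, beside 16.6% of all genes. These counts are not read as a result about these genes. A promoter entry was found for 11 of these 13 genes, and TGANTCA was present in 4, Mmp1a, Mmp1b, Mmp12 and Mmp20.

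Inhibitors and activators were read from lists of known partners. Timp1, the inducible secreted inhibitor, was at 7.77, 3.40 and 3.64 CPM at day 0, at 631, 650 and 585 CPM on plastic, at 33.6, 9.10 and 24.2 CPM in Matrigel alone and at 601, 901 and 680 CPM in co-culture. It thus was high in the same 2 HSC groups as Mmp3. Against Matrigel alone, 3 of 5 inhibitors tested rose in co-culture, Timp1 (5.07 ± 0.46), A2m (6.05 ± 1.32) and Timp3 (3.90 ± 0.52), and 2 fell, Reck (-1.27 ± 0.28) and Timp2 (-1.16 ± 0.17), which with Mmp14 takes part in Mmp2 activation. Of 10 activators, 2 rose in co-culture, the plasminogen activator Plat (4.42 ± 0.45) and the convertase Pcsk5 (1.37 ± 0.31), and 2 fell, the urokinase Plau (-1.69 ± 0.24) and Pcsk6 (-1.88 ± 0.49). Both sets of counts stand beside 17.3% of all genes higher and 13.8% lower, and those of the activators are near these shares. On plastic against day 0, 1 of 5 inhibitors rose, Timp1 (7.05 ± 0.52), and 2 fell, Reck (-2.73 ± 0.29) and Timp2 (-0.65 ± 0.17). Of 10 activators 3 rose, the urokinase receptor Plaur (3.95 ± 0.53), Plau (3.40 ± 0.26) and Plat (1.48 ± 0.41). The 4 that fell were Plg (-11.5 ± 0.55), Hpn (-4.96 ± 0.57), Pcsk6 (-2.69 ± 0.48) and Pcsk5 (-1.20 ± 0.32). These counts stand beside 27.5% of all genes higher and 30.5% lower. The median change of the inhibitors was 3.90 in co-culture against Matrigel alone and that of the activators 0.47, beside 0.03 for all genes. In ICOs 0 of 4 inhibitors were called, beside 16.6% of all genes. Of 8 activators tested there, 3 rose and 2 fell, beside 8.59% of all genes higher and 7.96% lower. Among these Plau fell by 0.93 ± 0.17 and St14, a membrane serine protease, rose by 0.51 ± 0.09.

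Among binding and uptake partners, co-cultured HSCs had 1 of 6 higher than in Matrigel alone, the MMP inducer Bsg (1.79 ± 0.22), and 2 lower, Itgb3 (-1.14 ± 0.17) and the uptake receptor Lrp1 (-0.86 ± 0.19). Bsg rose in co-cultured ICOs too (1.15 ± 0.14), with Lcn2, a carrier that binds Mmp9 (0.72 ± 0.14), and Lrp1 (1.19 ± 0.18). Bsg stood at 1866, 1473 and 2729 CPM in co-cultured HSCs and at 4961 to 7110 CPM in co-cultured ICOs. Alone in Matrigel it stood at 786, 563 and 465 CPM in HSCs and at 2536 to 2845 CPM in ICOs. Within each of these HSC groups Bsg followed the order of the organoid share. The organoid part of its rise in HSCs was not tested. Of 10 matrix substrates, 8 rose in co-cultured HSCs against Matrigel alone, led by Vcan (5.75 ± 0.41), Col1a1 (4.76 ± 0.24), Col3a1 (4.10 ± 0.27) and Fn1 (3.44 ± 0.30), and Eln fell by 2.85 ± 0.69. Their median change was 2.40, beside 0.03 for all genes, of which 17.3% were higher and 13.8% lower. The counts of binding partners, 1 higher and 2 lower of 6, stand beside the same shares. On plastic against day 0, 4 of the 10 matrix substrates rose, Vcan (5.69 ± 0.43) and Col1a1 (2.58 ± 0.22) foremost. The 3 that fell were Eln (-3.07 ± 0.71), Fn1 (-2.29 ± 0.29) and Col3a1 (-0.86 ± 0.24). There 27.5% of all genes were higher and 30.5% lower.

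Transcription factors known at MMP promoters split by family member. On plastic against day 0, 5 of 15 rose and 8 fell, with a median change of -0.86 beside -0.10 for all genes, of which 27.5% were higher and 30.5% lower. The AP-1 factor Fosl1 rose by 5.88 ± 0.44, while Fosb (-7.43 ± 0.40), Fos (-4.85 ± 0.31) and Jun (-4.84 ± 0.22) fell. The ETS factor Etv4 rose too (adjusted p = 0.000661), from 0 counts at day 0 to 1.52, 3.55 and 2.41 CPM. Fosl1 was at 0.392, 0.204 and 0.206 CPM at day 0, at 12.5, 12.4 and 21.0 CPM on plastic, at 0.669, 0.791 and 0.280 CPM in Matrigel alone and at 8.45, 9.62 and 8.96 CPM in co-culture. Fos stood at 7667 to 8505 CPM at day 0 and 151 to 363 CPM on plastic, so the group with the highest Mmp3, Mmp10 and Mmp13 had the lowest Fos. In co-cultured HSCs against Matrigel alone 5 of 15 rose, Fosl1 (4.01 ± 0.39), Etv4 (3.39 ± 0.77), Runx2 (1.80 ± 0.24) and Fosl2 (1.44 ± 0.18) foremost. Ets1 (-1.37 ± 0.17) and Ets2 (-0.76 ± 0.12) fell, that is 2 of 15. Of all genes in that comparison, 17.3% were higher and 13.8% lower. ICOs held Fosl1 at 7.06 to 11.2 CPM in both cultures. There 4 of 15 factors rose in co-culture, Fosb, Junb, Jun and Fos, by 0.44 to 0.65, and 11 were not called. Of all genes tested in ICOs, 8.59% were higher and 7.96% lower.

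The genes most like each member were read as the Pearson correlation of log2(CPM + 1) over the 18 libraries among 11183 genes. These libraries share their group structure, so the values are a description. Mmp3 was closest to Arxes2 (0.98), Lgals1 and Pi15, and Mmp10 to Vgll3 (0.99), Bdnf and Adam9. Mmp13 was closest to Slc26a7 (0.97), Gyg and Ptchd4. Mmp2 was closest to Pde1a (0.99), Hdnr and Olfml3, with its uptake receptor Lrp1 the fourth, and Mmp11 to Ifnar2 (0.97) and Kazald1. Mmp9 was closest to Defa29 (0.98), Dkk2, Cthrc1, a collagen-associated secreted protein, and S100a8. Mmp7 was closest to Ing4 (0.96), Pdgfc, Scara3 and the epithelial factor Elf3. Mmp14 was closest to the lysyl hydroxylase Plod2 (0.95), Mmp15 to Prkcz (0.98), a kinase of epithelial polarity, and Mmp19 to Col5a3 (0.97) and Wt1 (0.95). Between members the highest value was 0.92 for Mmp10 with Mmp13, and the lowest was -0.85 for Mmp3 with Mmp15.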

How the data were processed

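The deposited table held estimated counts per gene for 18 Smart-seq2 libraries (6 groups of 3), and 43.6% of values were not whole. Tools listed in the submitters' processing notes, with no role stated, are kallisto 0.46.1 and DESeq2 1.36.0, and the genome build is GRCm39. Counts were rounded and tested with edgeR 4.0.16 (R 4.3.3, robust quasi-likelihood F test, TMM scaling, filterByExpr, Benjamini-Hochberg over all genes tested, threshold 0.05). HSC comparisons used 1 fit of the 12 HSC libraries, ICO comparisons the 6 ICO libraries, and comparisons between sources the 12 Matrigel libraries. Scripts were tested on simulated counts. CPM levels used TMM over 18 libraries. Fold bounds used a floor of 3 counts over a group, covering counting error only. The organoid share is the median, over 10 cholangiocyte genes, of a library's CPM over the mean of the ICO group of the same culture (lone ICOs for HSCs grown without organoids). Where the organoid part was subtracted, negative remainders were set to 0. CPM per kb used the longest coding transcript of a GENCODE annotation of GRCm38, another build than the table's. Members and lists were chosen with earlier results of these data known. All 10 members are named, and of each list at most 4 called genes per direction and comparison, by size of change. Genes like a member were the 4 with the highest correlation among genes with at least 10 CPM on average in a group. Alternatives covered scaling, tool (DESeq2 1.42.0), filter, libraries in the fit, replicate block, organoid share and leaving out each library.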

Additional observations from a re-analysis of the deposited data

Results flagged for a closer look

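Mmp19 was flagged because the effect of co-culture differed between the cell sources by a test of the difference itself. The difference, HSC minus ICO, was 1.66 on the log2 scale (adjusted p = 0.0221 by edgeR's quasi-likelihood test), from 1.57 in HSCs and -0.18 in ICOs. By the same test the call was lost without co-cultured HSC replicate 2, co-cultured ICO replicate 1 or 3, or lone ICO replicate 3 (adjusted p from 0.0567 to 0.0605). All 3 co-cultured HSC libraries (16.8 to 24.3 CPM) lay above all 3 of Matrigel alone (4.88 to 7.79 CPM), while the ICO groups overlapped between 1.55 and 2.90 CPM. Organoid share times ICO level came to at most 5.23% of Mmp19 in co-cultured HSCs.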

How the results depend on the processing

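Counts of genes or members called stayed within 1.5 times of the reported ones in 539 and moved further in 49 of the combinations of count and setting, under scaling by RLE, DESeq2, other filters, other sets of libraries, the replicate block, removal of the organoid share and leaving out each library. The cause was not tested except where fewer libraries or genes entered a fit. Values are log2 fold changes or counts.

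Several changes turned sign, many of them near 0 in the reported fit. Mmp15 in Matrigel alone against plastic was not (1.98). Nor was Mmp7 in co-cultured HSCs (13.3 against day 0, 9.13 against plastic, 1.04 against Matrigel alone). Further from 0 were also Mmp7 (0.91) and Mmp10 (1.17) in HSCs against ICOs, each alone. The same held for Mmp9 (4.28) and Mmp3 (-1.31) in the difference of effects. For Matrigel alone against day 0, Mmp13 was -0.0195 with RLE scaling, -0.0164 with DESeq2, -0.0368 without a low-count filter, -0.0324 with the replicate block and -0.959 with the organoid share as a covariate, and -0.863 to 0.374 over the leave-outs. Mmp19 there was 0.0414 with a filter of 10 CPM, 0.0946 with the share subtracted and 0.244 with it as a covariate, and -0.199 to 0.118 over the leave-outs, and Mmp9 was -0.817 to 0.0759. For plastic against day 0, Mmp9 was -0.867 to 0.239. For Matrigel alone against plastic, Mmp14 was 0.0669 (filter of 10 CPM), 0.0570 (share subtracted) and 0.149 (covariate), Mmp15 was -0.189 with the share subtracted, and Mmp9 was 0.231 with the covariate and -0.544 to 0.347 over the leave-outs.

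For co-cultured HSCs, subtracting the organoid share gave Mmp7 -14.5 against Matrigel alone, -6.00 against plastic and -1.84 against day 0, and Mmp15 -2.09 against day 0. These Mmp7 values come from co-culture counts that the subtraction set to 0, so they are not estimates of a change. With the share as a covariate, Mmp15 against day 0 was -1.46 and Mmp11 was 0.0288 against day 0 and 0.0576 against Matrigel alone. Over the leave-outs, Mmp13 was -1.10 to 0.307 and Mmp11 -0.293 to 0.0442 against Matrigel alone, and Mmp15 was -0.390 to 0.517 against day 0. In ICOs Mmp19 was -0.492 to 0.00387. For HSCs against ICOs, each alone, Mmp7 was -1.47 to 1.43, Mmp10 -3.61 to 1.76 and Mmp13 -0.637 to 0.648, the lowest of each without Matrigel HSC replicate 1. For the difference of effects, Mmp3 was -1.84 to 3.10 and Mmp9 -0.0708 to 5.01.

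Counts moved as follows. With the share as a covariate, members lower were 1 for Matrigel alone against day 0 and 2 for co-culture against day 0, and all genes higher and lower were 1923 and 1760 against plastic and 2691 and 2623 against day 0 for co-culture. Members lower in co-cultured HSCs were 0 against Matrigel alone with all 18 libraries in 1 fit and 2 with the share subtracted, and 1 against day 0 with RLE, DESeq2, all 18 libraries or only the 6 compared, where Mmp11 passed. All genes higher against Matrigel alone were 1605 with only the 6 libraries. Members higher there were 4 to 7 over the leave-outs. In ICOs, members higher were 2 without a filter and 1 to 2 over the leave-outs, members lower were 0 with a filter of 10 CPM, 1 with all 18 libraries and 1 to 2 over the leave-outs, and all genes higher and lower were 308 and 238 with all 18 libraries and 763 to 1005 and 661 to 966 over the leave-outs. For HSCs against ICOs alone, all genes higher were 3296 with a filter of 10 CPM and members lower 1 to 2 over the leave-outs. From co-culture, members lower were 2 with DESeq2, only the 6 libraries or the share subtracted, where Mmp7 passed, and all genes lower 1477 to 2701 over the leave-outs. For the difference of effects, members higher were 3 with DESeq2 and with all 18 libraries and 2 with the share subtracted, members lower 1 with the share subtracted, and over the leave-outs members higher were 0 to 3, members lower 0 to 1 and all genes higher 981 to 2307. With the share subtracted, the calls of Mmp7 as lower in co-cultured HSCs rest on counts set to 0.

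Replicate numbers are shared by all groups, but same-numbered libraries correlated between -0.392 and 0.1 in their deviations from group means, so the numbers were not taken to pair libraries. Co-cultured HSCs and ICOs also share the letter in their titles, and there the correlations were 0.0551, 0.0611 and -0.0431. With the replicate block, the counts of members were unchanged in all 10 comparisons, and genes called in co-cultured HSCs against Matrigel alone were 2684 higher and 2121 lower. Levels under about 1 CPM rest on few counts, which limits Mmp7, Mmp9 and Mmp10 in the groups where they were low.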

Other observations

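Mmp12, the macrophage elastase, was at 55.0, 54.8 and 96.7 CPM in HSCs alone in Matrigel, at 2.56, 17.2 and 32.4 CPM in co-cultured HSCs and at 11.3, 6.15 and 55.9 CPM on plastic. The summed level of 16 macrophage markers was 2535, 2649 and 3478 CPM, 128, 203 and 206 CPM, and 159, 114 and 511 CPM in the same libraries, and most of the sum in Matrigel alone was Lyz2 (1978 to 2770 CPM). At day 0 the marker sum was 1093, 1140 and 1138 CPM, above plastic, while Mmp12 was at 4.08, 6.74 and 8.16 CPM. Mmp12 was higher in Matrigel alone than at day 0 by 3.45 ± 0.97 on the log2 scale (edgeR, adjusted p = 0.0181). Mmp20 was at 0.549 to 1.87 CPM in co-cultured ICOs and had no count in day 0 or plastic HSCs.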
